A study of Mus musculus with 3 samples.

Results

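The genes described here encode the enzymes and subunits of the H3K4 methyltransferase complexes to which Setd1a belongs or is related. They are 10 of the 21938 protein-coding genes annotated in GENCODE M21 and were chosen by name, for their place in these complexes. *Setd1b*, *Kmt2a*, *Kmt2b*, *Kmt2c* and *Kmt2d* encode the catalytic subunits other than Setd1a. *Wdr5*, *Rbbp5*, *Ash2l* and *Dpy30* encode the core that the complexes share, and *Cxxc1* encodes a subunit of the Setd1a and Setd1b complexes. The question was which of these genes carry a Setd1a peak themselves.

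Methylation of lysine 4 of histone H3 (H3K4) marks active promoters and enhancers. In mammals it is written by a family of related complexes in which a catalytic SET domain protein is joined to the Wdr5, Rbbp5, Ash2l and Dpy30 core, which stimulates its activity. Setd1a and Setd1b are known for trimethylation at promoters, Kmt2a and Kmt2b work with menin at developmental genes, and Kmt2c and Kmt2d monomethylate H3K4 at enhancers. Cxxc1, Kmt2a and Kmt2b carry a CXXC zinc finger that binds unmethylated CpG dinucleotides, and many promoters of such genes lie in CpG islands.

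Setd1a was mapped with CUT & RUN, in which an antibody on chromatin directs a nuclease that releases the DNA around the bound protein for sequencing. The experiment had 2 Setd1a libraries, from independent cultures, and 1 control library made with rabbit IgG. All 3 came from adult neural stem cells (NSCs) of the dentate gyrus, taken from Hopx-CreERT2::Setd1a fl/fl::H2B-GFP mice aged 7 to 8 weeks and kept in quiescence medium until day 5, with BMP4 and FGF2 at 20 ng/ml each. The labels give the genotype of all 3 as WT and the cell type as neural progenitor cells, while their growth protocol names mice with floxed *Setd1a* alleles and an inducible Cre driven by *Hopx*. The labels do not settle how the 2 statements go together, nor whether a control virus was added to these cultures, and they are the same for the Setd1a and the IgG samples. The cells were expanded in culture before quiescence was induced and are a model of the quiescent NSCs of the brain.

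The values are the positions of 6969 Setd1a peaks on mm10, in a single list of peaks present in both replicates. The list gives no height or enrichment per peak and no separate replicates. For this reason neither the spread between replicates nor the sequencing depth could be measured here, and no test across samples could be made. A gene without a peak is a gene absent from this list, and its Setd1a signal was not measured here. As a check of the labelled cells, 5 of 8 NSC marker genes (*Sox2*, *Nes*, *Gfap*, *Vim* and *Id3*) had a peak within 3000 bp of a transcription start site (TSS). The other 3 were *Hopx*, *Fabp7* and *Slc1a3*. The 95% Wilson confidence interval of the 5 of 8 was wide, from 30.6% to 86.3%, and at only 3 genes did the peak cover a TSS. None of 16 marker genes of neurons, oligodendrocytes, microglia and endothelium had a peak within 3000 bp, a share with an interval from 0 to 19.4%. No separate list of astrocyte markers was examined. *Gfap* and *Slc1a3* of the NSC list also mark astrocytes, so these genes do not separate NSCs from astrocytes. Over all protein-coding genes the share was 23.0%, and it was 7.74% for genes whose promoter is not CpG-rich, as defined below. Only 3 of the 16 genes and 3 of the 8 NSC genes had a CpG-rich promoter. The interval of the 0 of 16 includes 7.74%, so the 0 of 16 is by itself no check of the cells. A peak at a marker is a position of Setd1a and not a level of expression.

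A gene was counted as having a promoter peak when some base of a peak lay at most 3000 bp from the TSS of any of its transcripts. By this count 5 of the 10 genes had a promoter peak, namely *Setd1b*, *Kmt2b*, *Kmt2c*, *Wdr5* and *Rbbp5*. *Kmt2a*, *Kmt2d*, *Ash2l*, *Dpy30* and *Cxxc1* had none. Among all protein-coding genes, 5036 of 21938 had a promoter peak, which is 23.0%. The 95% Wilson confidence interval of the share of the 10 genes ran from 23.7% to 76.3% and covers counting error over genes only. The background share rose with the CpG content of the promoter. It was 40.8% for the 10098 genes with a CpG-rich promoter, meaning a GC content of at least 50% and a ratio of observed to expected CpGs of at least 0.6 in the 1001 bp around the representative TSS, and 7.74% for the other 11840 genes. The representative TSS is that of the principal protein-coding transcript by its APPRIS rank in the annotation, and the most 5′ one where several tied. Of the 10 genes 9 had a CpG-rich promoter by this measure, and 40.8% lies inside the interval of their share. The 10 genes were chosen by name, so these shares are a description and not a test.

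By role, 3 of the 5 catalytic genes, 2 of the 4 core genes and 0 of 1 Setd1-specific gene had a promoter peak. Each mammalian enzyme has a closest relative, and in 3 of 3 such pairs exactly 1 gene had a peak. *Setd1b* had peaks and *Setd1a*, whose nearest peak lay 30.5 kb from its TSS, had none. *Kmt2b* had a peak and *Kmt2a* had none. *Kmt2c* had a peak and *Kmt2d* had none. With 3 pairs, nothing beyond these counts can be read from the pattern.

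The promoters of 6 of the 10 genes were found in the RefSeq promoter table of GRCm38.p6, and the part upstream of the first exon is shown for each of these 6, so that promoters with and without a peak can be read side by side. *Setd1b*, *Kmt2b*, *Ash2l* and *Cxxc1* had no entry. Sequences run 5′ to 3′ on the strand of the gene, and capitals mark CpG dinucleotides. For the first 3 genes below, the peak covers all 250 bases shown of *Wdr5*, all 248 of *Rbbp5* and the last 32 of *Kmt2c*. The *Wdr5* sequence is from the plus strand at chr2:27514897-27515146 and holds 12 CpGs, most of them in its 3′ part. The *Rbbp5* sequence is from the plus strand at chr1:132477117-132477364 and holds 10. The *Kmt2c* sequence is from the minus strand at chr5:25498784-25499033 and holds 48, with a GC content of 91.6%.
Wdr5: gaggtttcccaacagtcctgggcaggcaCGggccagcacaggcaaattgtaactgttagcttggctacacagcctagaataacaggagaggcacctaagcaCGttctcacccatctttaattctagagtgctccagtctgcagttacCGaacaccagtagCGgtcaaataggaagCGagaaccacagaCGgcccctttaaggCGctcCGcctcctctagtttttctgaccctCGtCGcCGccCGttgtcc
Rbbp5: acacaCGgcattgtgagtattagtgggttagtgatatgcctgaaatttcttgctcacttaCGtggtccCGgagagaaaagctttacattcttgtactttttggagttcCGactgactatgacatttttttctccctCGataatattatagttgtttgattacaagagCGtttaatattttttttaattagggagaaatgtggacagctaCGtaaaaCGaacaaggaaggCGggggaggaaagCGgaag
Kmt2c: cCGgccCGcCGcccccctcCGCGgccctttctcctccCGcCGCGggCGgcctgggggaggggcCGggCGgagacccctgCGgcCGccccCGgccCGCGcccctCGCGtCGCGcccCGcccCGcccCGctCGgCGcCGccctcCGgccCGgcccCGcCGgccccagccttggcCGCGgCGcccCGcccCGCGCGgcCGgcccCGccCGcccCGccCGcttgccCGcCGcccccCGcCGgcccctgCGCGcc

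No base of the next 3 sequences lies in a peak. The *Kmt2a* sequence is from the minus strand at chr9:44881297-44881539 and holds 29 CpGs in 243 bases. The *Kmt2d* sequence is from the minus strand at chr15:98871206-98871455 and holds 26 CpGs in 250 bases, most of them in its 5′ part. *Dpy30* has several entries, and the one shown belongs to the start region that 5 of its 6 annotated transcripts use. It is from the minus strand at chr17:74316464-74316683 and holds 15 CpGs in 220 bases.
Kmt2a: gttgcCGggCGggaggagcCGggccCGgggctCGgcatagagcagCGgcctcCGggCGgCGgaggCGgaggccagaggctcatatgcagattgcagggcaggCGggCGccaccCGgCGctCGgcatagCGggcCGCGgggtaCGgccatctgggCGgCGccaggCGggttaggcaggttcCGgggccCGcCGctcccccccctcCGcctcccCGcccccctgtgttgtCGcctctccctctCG
Kmt2d: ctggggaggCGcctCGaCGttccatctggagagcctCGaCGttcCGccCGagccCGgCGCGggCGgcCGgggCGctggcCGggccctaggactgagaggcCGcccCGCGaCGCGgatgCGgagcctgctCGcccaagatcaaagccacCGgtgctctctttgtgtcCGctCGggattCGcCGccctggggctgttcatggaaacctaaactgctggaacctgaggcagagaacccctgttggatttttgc
Dpy30: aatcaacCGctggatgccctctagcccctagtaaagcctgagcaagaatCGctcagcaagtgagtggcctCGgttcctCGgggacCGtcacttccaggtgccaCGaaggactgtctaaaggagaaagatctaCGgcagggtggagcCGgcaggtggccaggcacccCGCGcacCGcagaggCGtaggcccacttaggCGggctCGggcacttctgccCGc

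The sequences with and without a peak overlap in CpG content. *Rbbp5* and *Wdr5*, both under a peak, hold fewer CpGs than *Kmt2a* and *Kmt2d*, which have no peak. The full RefSeq windows run from 250 bases upstream to 50 bases downstream of the TSS. They held 56 CpGs at *Kmt2c*, 36 at *Kmt2a*, 27 at *Kmt2d*, 22 at *Wdr5* and 16 at *Rbbp5*. The median over the 32851 windows of this length in the table was 7, with quartiles of 3 and 20. *Dpy30* had 1 CpG in the window of its far start and 30, 34 and 39 in those of the others. The letters GGGCGG, the GC box of Sp and KLF factors, were found on either strand 12 times at *Kmt2c*, 5 times at *Kmt2a*, 4 times at *Kmt2d* and 2 times at *Wdr5*, and not at *Rbbp5*. They were present in 35.7% of all windows. Counted like this, CpGs within the GC box are counted in both. A match of letters is a description of the sequence and not evidence of a bound factor.

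Among the catalytic genes, *Setd1b* encodes the paralog of Setd1a and can carry the same Cxxc1 and Wdr82 subunits. It lies on the plus strand of chromosome 5, from 123142193 to 123168629. It was the gene of the 10 with the most promoter peaks, and the only 1 of the 5 genes with promoter peaks at which none covered a TSS. The first peak, chr5:123141131-123141667, was 537 bp wide and ended 526 bp upstream of the TSS. The second, chr5:123139383-123139743, was 361 bp wide and ended 2450 bp upstream. A further 2 peaks lay just outside the promoter window. The one at chr5:123138598-123139017 was 420 bp wide and 3176 bp from the TSS, and the one at chr5:123136068-123136927 was 860 bp wide and 5266 bp away. The 4 peaks thus formed a row upstream of the gene. Within 10000 bp of a TSS, 30 of the protein-coding genes, 0.137%, had 4 or more peaks and 71.9% had none.

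The same stretch holds noncoding genes. The 537 bp peak covers the TSS at 123141666 of *AI480526*, a long intergenic noncoding RNA (lincRNA) gene on the minus strand that starts 527 bp from the *Setd1b* TSS and is transcribed away from it. *4932422M17Rik*, a lincRNA gene on the plus strand, starts at 123138931, inside the 420 bp peak. The lincRNA *Gm26745* spans the whole region. When each peak was given only to the gene of the TSS nearest its midpoint, both promoter peaks of *Setd1b* went to *AI480526*, and *Setd1b* no longer counted. Which of these genes the peaks belong to cannot be told from positions. The peaks had a GC content of 53.8% and 54.3% and held 30 and 12 CpGs, whereas the 1001 bp around the *Setd1b* TSS, which neither peak reaches, held 102 CpGs at 72.4% GC.

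*Kmt2b* encodes a CXXC enzyme that trimethylates H3K4 at CpG island promoters. It lies on the minus strand of chromosome 7, from 30568858 to 30588726. Its peak, chr7:30588479-30589440, was 962 bp wide, at least as wide as 88.9% of promoter peaks. It covered the TSS of 2 of the 8 annotated transcripts, both protein-coding, with 714 bp upstream of the gene and 248 bp in the first exon. It was the peak with the most CpGs of those at the 10 genes, 101 at a GC content of 71.4%. The annotated start of *Mir3569*, a microRNA entry on the opposite strand, lies inside the peak, 654 bp from the *Kmt2b* TSS. This entry runs only from 30589380 to 30589437, and its start need not be where transcription begins.

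*Kmt2c* encodes, like *Kmt2d*, an enzyme that acts on enhancers. It was the longest of the 10 genes at 227 kb, on the minus strand of chromosome 5 from 25271798 to 25498783. Its peak was the narrowest at these genes. It spanned chr5:25498567-25498815 and was 249 bp wide, with only 4.11% of promoter peaks as narrow or narrower. It covered the TSS of 4 of 8 transcripts, 3 of them protein-coding, and 217 of its bases lay in the first exon. The GC content was 74.3%, above that of most promoter peaks, and 30.1% of the bases were marked as repeats in the reference. The 1001 bp around the *Kmt2c* TSS held 141 CpGs, at least as many as in 99.4% of protein-coding genes, so the richest CpG promoter of the 10 had the narrowest peak. When intervals under 300 bp were left out, *Kmt2c* lost its peak. The lincRNA gene *4831440E17Rik* starts on the opposite strand 322 bp from the *Kmt2c* TSS and 252 bp outside the peak.

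The core subunit genes with a peak were *Wdr5* and *Rbbp5*. Wdr5 is the propeller protein that docks the enzymes on the core, and Rbbp5 forms with Ash2l the pair that activates the SET domain. The *Wdr5* gene (plus strand, chromosome 2, 27515157 to 27536535) had a peak of 301 bp at chr2:27514896-27515196. It lay almost wholly upstream, with 261 bp before the gene and 40 bp in the first exon, and covered the TSS of 2 of 4 transcripts. It held 22 CpGs at 58.8% GC and the highest CpG ratio of the 6 peaks, 0.884. No other gene started within 3000 bp of it, so *Wdr5* was the only 1 of the 5 genes whose peak had no noncoding neighbour.

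*Rbbp5* (plus strand, chromosome 1, 132477365 to 132505659) had the widest peak, 1061 bp at chr1:132476703-132477763, at least as wide as 92.1% of promoter peaks. It covered the TSS of 6 of 7 transcripts, all 6 protein-coding, and spanned 662 bp upstream, 285 bp of exon and 114 bp of intron. Its GC content of 50.4% was the lowest of the 6 peaks, and only 10.2% of promoter peaks were at or below it. With 52 CpGs its CpG ratio was 0.776, close to the median of 0.791 over promoter peaks. The start of *6030442K20Rik*, a noncoding gene on the minus strand, lies inside the peak, 303 bp from the *Rbbp5* TSS. At *Rbbp5* the peak was thus wide over a promoter of modest GC content, and at *Kmt2c* it was narrow over one of extreme GC content. Width did not follow GC content throughout. The *Kmt2b* peak was 962 bp wide at 71.4% GC, and the *Wdr5* peak was 301 bp wide at 58.8% GC.

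**Figure D1:**
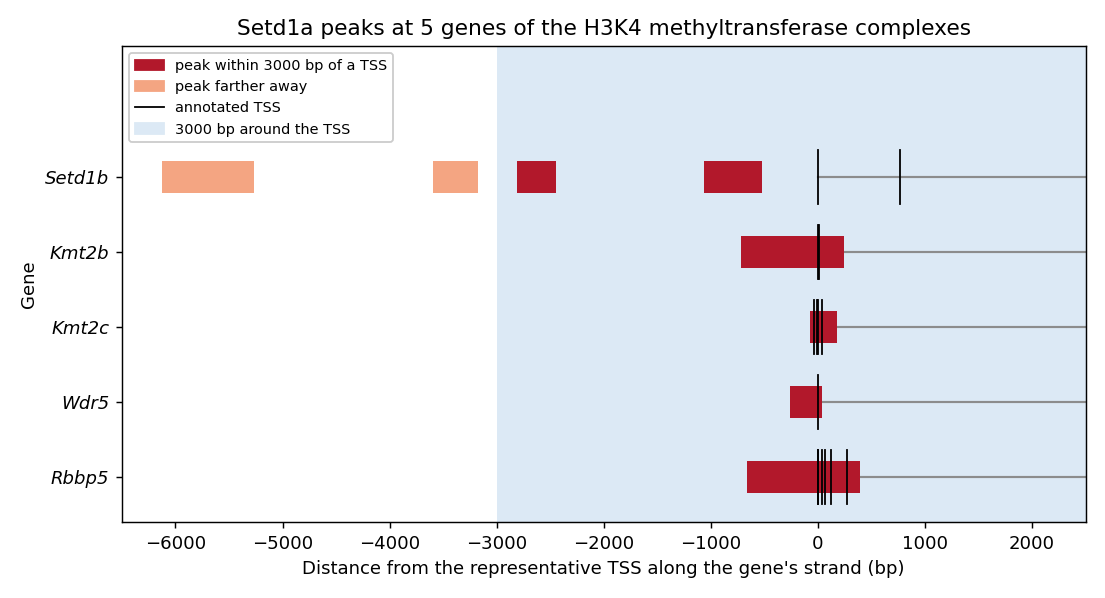
Positions of the Setd1a peaks at the 5 genes with a promoter peak, with the distance from the representative TSS in bp along the strand of the gene on the horizontal axis and 1 row per gene; boxes are peaks, black lines are annotated TSSs and the grey line is the start of the gene. The peaks of *Kmt2b*, *Kmt2c*, *Wdr5* and *Rbbp5* cover a TSS, and the 4 peaks of *Setd1b* lie upstream, the nearest ending 526 bp from the TSS.

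Thus a peak covered a TSS at 4 of the 10 genes, against 16.4% of all protein-coding genes. This 16.4% is not limited to genes with a CpG-rich promoter, which 9 of the 10 genes have. Over all protein-coding genes 5036 had a promoter peak and 3590 had a peak over a TSS. Outside the promoter windows the gene bodies of the 10 genes had no peak, against 4.50% of all protein-coding genes with at least 1. These bodies are 346 kb in sum, and over all protein-coding genes there were 1.43 gene-body peaks per Mb. The share depended on gene length, at 13.7% in the quartile of the longest genes and 0.0912% in that of the shortest, and *Kmt2c* and *Kmt2a* (77.9 kb) are longer than the upper quartile of 45.1 kb. All peaks that these 10 genes carry therefore lie at or upstream of their starts.

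The 6 promoter peaks had a median width of 449 bp, against 507 bp with quartiles of 354 and 741 bp for all 4889 promoter peaks on chromosomes. The 6 widths ran from 249 to 1061 bp, and only the 361 and 537 bp peaks of *Setd1b* lay between these quartiles. The median GC content was 56.5% at these genes and 62.2% over all promoter peaks, and the median CpG ratio was 0.801 and 0.791. Of the 6 peaks, the 361 bp peak of *Setd1b*, which lies farthest from a TSS, was the poorest in CpGs, with a ratio of 0.460 that only 16.1% of promoter peaks were at or below. The other 5 had ratios between 0.772 and 0.884.

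Letters of 8 motifs were searched on both strands of the 6 peaks, and each count is set beside the share of all promoter peaks that held the letters when taken at the same length around their midpoint. The GC box GGGCGG was found in 5 of the 6 peaks, 5 times at *Kmt2b*, 2 times at *Wdr5* and once each at *Kmt2c*, *Rbbp5* and the 537 bp peak of *Setd1b*. It was held by 54.7% to 83.9% of promoter peaks, depending on the length. CCAAT, the NF-Y motif, was found 4 times in the 537 bp peak of *Setd1b*, where 48.7% of promoter peaks held it, and once each in the 361 bp peak of *Setd1b* (37.0%) and at *Rbbp5* (70.8%). AAGATGGC, the YY1 motif, was found once, at *Kmt2b* (10.7%). The ETS letters CCGGAAG, the E-box CACGTG, the NRF1 letters GCATGCGC, the CRE letters TGACGTCA and the promoter element TATAAA were in none of the 6 peaks. At *Rbbp5*, the longest, each of these 5 was held by 5.87% to 29.1% of promoter peaks.

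**Figure D2:**
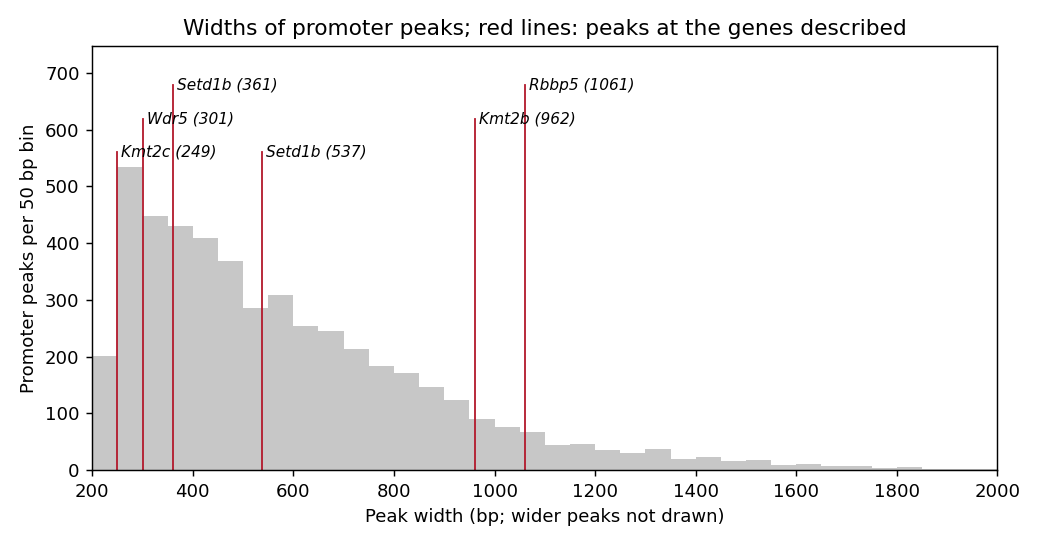
Widths of promoter peaks in bins of 50 bp, with the width in bp on the horizontal axis and the number of peaks on the vertical axis; 11 peaks wider than 2000 bp are not drawn, and red lines mark the 6 peaks at the genes described. *Kmt2c* and *Wdr5* sit at the narrow end (249 and 301 bp), *Kmt2b* and *Rbbp5* in the wide tail (962 and 1061 bp).

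A CpG-rich promoter did not set the genes with a peak apart from those without. In the 1001 bp around the representative TSS, the genes with a peak held 52 (*Rbbp5*) to 141 (*Kmt2c*) CpGs, with 90 at *Wdr5*, 102 at *Setd1b* and 106 at *Kmt2b*. The genes without held 79 at *Ash2l*, 81 at *Cxxc1*, 86 at *Kmt2d* and 120 at *Kmt2a*. *Dpy30* held 6 at its representative TSS, which a single transcript uses, and 77 to 83 at its other 5 starts, all of which were CpG-rich. The ranges overlap. Over all protein-coding genes the median was 71 with a promoter peak and 29 without. Among genes with 80 to 109 CpGs 47.1% had a promoter peak, and 3 of the 5 genes described here in that range did. Above this the share was about the same, 47.3% with 110 or more, where *Kmt2c* had a peak and *Kmt2a* did not. In the range from 50 to 79 it was 37.0%, and *Rbbp5* had a peak and *Ash2l* did not.

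**Figure D3:**
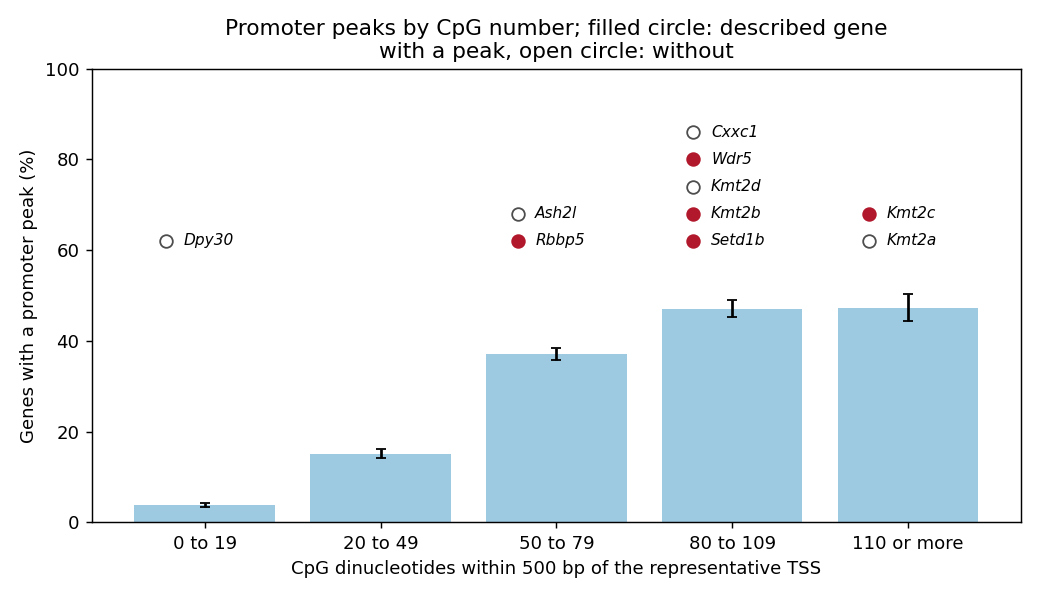
Share of protein-coding genes with a promoter peak (vertical axis, in %, with 95% Wilson confidence intervals) by the number of CpGs in the 1001 bp around the representative TSS (horizontal axis); circles above the bars place the 10 genes in the same classes, at heights that carry no value, filled with a promoter peak and open without. The share rises from 3.77% below 20 CpGs to 47.3% at 110 or more, and the classes from 50 CpGs upward each hold genes with and without a peak. *Dpy30* is placed by its representative TSS.

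A further gene started on the opposite strand within 1000 bp upstream at 4 of the 5 genes with a peak and at 1 of the 5 without. Among all 21938 protein-coding genes 3094 had such a partner. Among the 5036 of them with a promoter peak, 1450 had one. Over all protein-coding genes, 46.9% of the 3094 with a divergent partner within 1000 bp had a promoter peak, against 19.0% of the others. *Setd1b*, *Kmt2b*, *Kmt2c* and *Rbbp5* had such a partner, named above, and *Wdr5* did not. That of *Kmt2b* is the short microRNA entry, counted by its annotated start. Of the genes without a peak *Kmt2a* had one, *AC061963.1*, and *Kmt2d*, *Ash2l*, *Dpy30* and *Cxxc1* had none. Whether this difference among all genes holds at equal CpG content was not tested.

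The 5 genes without a promoter peak were not close to the threshold. *Dpy30*, which encodes the small dimer that binds Ash2l, was the nearest, with 20.7 kb between its closest TSS and a peak of 645 bp at chr17:74294901-74295545, which lies past the 3′ end of the gene. The distances of the other 4 genes are likewise from the closest TSS. That peak covers the TSS of *Memo1*. *Kmt2a*, the homeobox gene regulator that is rearranged in leukaemia, lay 39.4 kb from a peak of 583 bp at chr9:44920677-44921259 over the TSS of *Atp5l*, which encodes a subunit of ATP synthase. *Kmt2d* lay 46.3 kb from a peak of 1175 bp at chr15:98917461-98918635 over the TSS of *Lmbr1l*. The nearest peaks of these 3 genes were thus at the starts of other genes.

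*Ash2l*, which encodes the partner of Rbbp5, lay 150 kb from a peak of 255 bp at chr8:25997481-25997735, whose nearest TSS was that of *Fnta*, 2695 bp away. *Cxxc1*, whose protein recruits the Setd1a complex to unmethylated CpGs, was the most remote, 310 kb from a peak of 253 bp at chr18:73905701-73905953. The nearest TSS to that peak was that of *Mro*, 42029 bp away. The stretch without a peak around *Cxxc1* was 873 kb long. Among the 16902 protein-coding genes without a promoter peak, the median distance to the nearest peak was 103 kb, with quartiles of 35.3 and 344 kb. Of the 5 genes, *Dpy30* was nearer than the lower quartile, the other 4 lay inside the quartiles, and none was farther than the upper one. Among the 5979 genes without a promoter peak that had a CpG-rich promoter the median was 66.5 kb, and 85.6% of them were as near to a peak as *Cxxc1* or nearer.

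**Figure D4:**
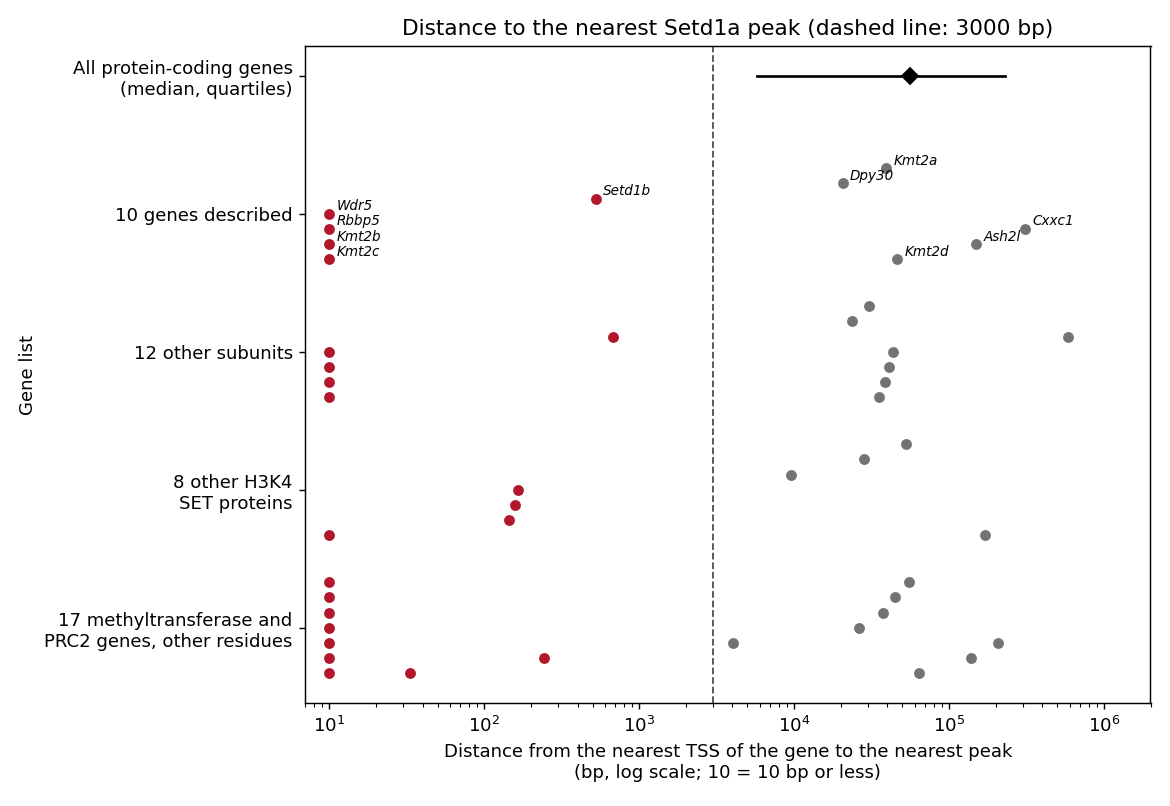
Distance in bp, on a log scale, from the nearest TSS of each gene to the nearest peak, for the 10 genes described and for 3 lists of other genes; points are genes (those at 10 bp or less drawn at 10), red with a promoter peak and grey without, spread vertically so that they can be told apart, and the diamond and line give the median and quartiles of all protein-coding genes. Between 3000 and 20000 bp lies none of the 10 genes, and the farthest is *Cxxc1* at 310 kb.

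The number of peaks in the wider region differed among the genes. Within 500 kb on either side of the representative TSS, *Kmt2b* had 16 peaks and *Setd1b* 10, with 9 at *Wdr5*, 7 at *Rbbp5* and 6 at *Kmt2c*. The genes without a promoter peak had 8 at *Kmt2d*, 6 at *Ash2l*, 4 at *Kmt2a*, 3 at *Dpy30* and 1 at *Cxxc1*. The groups overlap, since *Kmt2d* had more than *Rbbp5* and *Kmt2c*. These counts include the promoter peaks themselves. Over all protein-coding genes the median was 7 with a promoter peak and 3 without, so the region of *Kmt2d* was rich in peaks although its promoter had none.

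**Figure D5:**
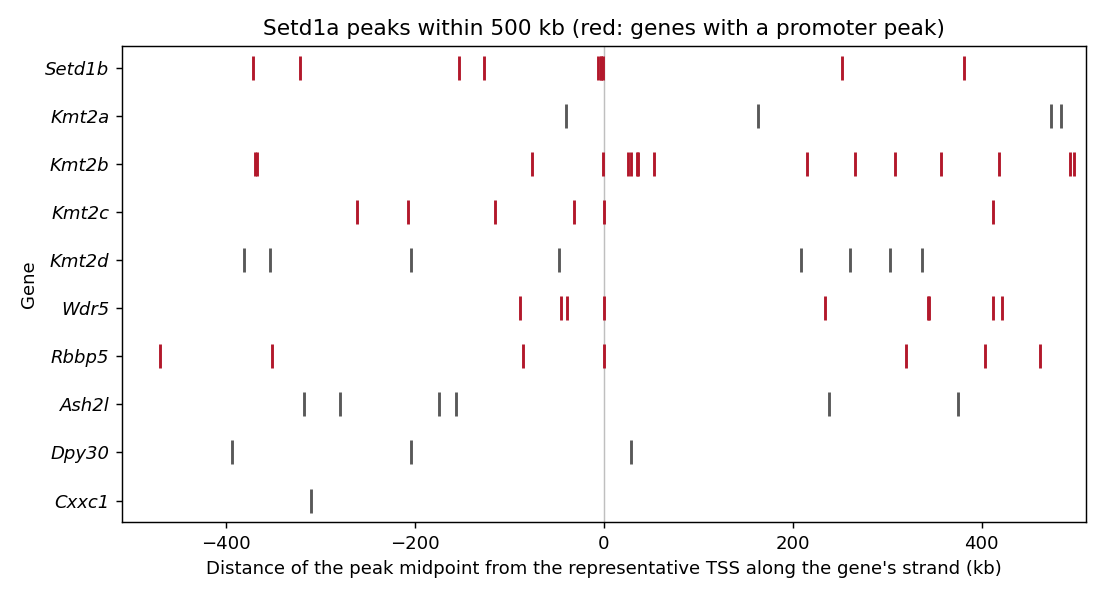
Setd1a peaks within 500 kb of the representative TSS of each of the 10 genes, with the distance of the peak midpoint in kb along the strand of the gene on the horizontal axis and 1 row per gene; red marks belong to genes with a promoter peak. *Kmt2b* has the most marks (16) and *Cxxc1* a single one, 310 kb upstream.

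The other subunits of the same complexes had promoter peaks at 5 of 12 genes, or 41.7%. *Wdr82*, the Setd1-specific subunit that links the complex to RNA polymerase II, had a peak of 321 bp over its TSS. *Paxip1* and *Pagr1a*, which encode subunits of the Kmt2c and Kmt2d complexes, had peaks of 1309 and 834 bp over theirs. *Bod1l*, whose protein joins the Setd1a complex, had one of 233 bp, the narrowest width in the whole list. The peak at *Hcfc1*, which encodes host cell factor, a subunit of the Setd1 complexes, was 607 bp wide and 676 bp from the TSS, and it was 1 of the 38 peaks on chromosome X. *Setd1a* itself, *Hcfc2*, *Men1*, *Psip1*, *Kdm6a*, *Ncoa6* and *Bod1* had none. Thus of the Setd1-specific *Wdr82* and *Cxxc1* only *Wdr82* had a peak, and of *Bod1l* and *Bod1* only *Bod1l* did. Of the parts specific to Kmt2c and Kmt2d, *Paxip1* and *Pagr1a* had peaks and *Kdm6a* and *Ncoa6* did not. *Kdm6a* lies, like *Hcfc1*, on chromosome X, which had 0.222 peaks per Mb, against 1.89 to 4.36 per Mb on the autosomes. Whether the lack of a peak at *Kdm6a* goes with its chromosome was not tested. *Men1* and *Psip1*, whose proteins accompany Kmt2a and Kmt2b, had none.

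Other SET proteins linked to H3K4 had a promoter peak at 4 of 8 genes. At *Kmt2e*, *Setd5* and *Ash1l* the peak ended 165, 159 and 144 bp upstream of the TSS and did not cover it, and at *Prdm9* it covered a TSS. *Smyd1*, *Smyd2*, *Smyd3* and *Setd7* had none. *Kmt2e*, *Setd5* and *Ash1l* each have a divergent partner within 1000 bp, in this order *5031425E22Rik*, *Gt(ROSA)26Sor* and *Dap3*. Which gene of each pair the peak belongs to cannot be told from positions. Beside the 23.0% of all protein-coding genes and the 40.8% of those with CpG-rich promoters, the 95% Wilson confidence interval of the share was 19.3% to 68.0% for the other subunits and 21.5% to 78.5% for the other SET proteins, and 40.8% lies inside both. Only 10 of the 12 other subunits and 6 of the 8 other SET proteins had a CpG-rich promoter, so 40.8% is not an exact match for these lists.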

How the data were processed

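Reads were demultiplexed with bcl2fastq 2.17.1.14, trimmed with Trimmomatic 0.32, mapped uniquely to mm10 with Bowtie2 2.1.0 and filtered with SAMtools 0.1.18 by the authors, who called peaks with MACS2 2.2.8 at default parameters and kept the peaks that intersected between both replicates. The deposited values are peak coordinates in bp, with no read count or signal. Which coordinates an intersecting pair was given and whether the IgG library served as control in calling are not given in the sources used here.

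Peaks were annotated on GRCm38 with GENCODE M21, using Python 3.11.15, pandas 2.3.3, numpy 2.4.6, scipy 1.17.1, pysam 0.24.0, samtools 1.23.1 and matplotlib 3.10.9. All 6952 of 6952 intervals on chromosomes and the mitochondrial genome lay within the reference lengths. Intervals on scaffolds were not annotated. Composition was measured in the 1001 bp around 1 representative TSS per gene. A gene-body peak overlapped the gene outside every 3000 bp window. Each peak counted for every gene in reach. Interval matching was tested on simulated peaks. Every column of values was used.

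The 10 genes and the other lists were chosen with earlier results of these data known. Named genes are the lists, plus genes whose TSS or span meets a peak described, that lie next to the nearest peak, or that are divergent partners. Alternatives covered the window, transcripts, assignment, minimum width and merging.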

Additional observations from a re-analysis of the deposited data

How the results depend on the processing

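No paired analysis was possible because both replicates were merged into a single list, and for the same reason no replicate could be left out. The number of the 10 genes with a promoter peak was 5 with windows of 1000, 2000, 10000 and 20000 bp, with protein-coding, GENCODE basic or RefSeq transcripts and with intervals within 1000 bp merged. It was 4 when each peak went to the nearest TSS (without *Setd1b*) and 4 with intervals of at least 300 bp (without *Kmt2c*). With a window of 50000 bp it was 8, adding *Kmt2a*, *Kmt2d* and *Dpy30*. Of all 21938 protein-coding genes, 4705 had a peak at 1000 bp, 4872 at 2000 bp and 6167 at 10000 bp. These were 7565 at 20000 bp and 10511 at 50000 bp, so the background rose with the window too. Merging raised the median width of the peaks to 750 bp, since the 361 bp peak of *Setd1b* joined its 420 bp neighbour. With every interval over the gene span counted, promoter windows included, 4 of the 10 genes had a peak in the gene. The same count over all protein-coding genes is not given here, so this number has no background to be read against. The basic and RefSeq transcripts and the windows of 10000 bp and more were chosen after seeing the data. The unknown depth limits what the absence of a peak can show.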

Other observations

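Genes for methyltransferases of other histone residues and for the core of Polycomb repressive complex 2 had a promoter peak at 9 of 17, or 52.9%, with a 95% Wilson confidence interval from 31.0% to 73.8%. Of these 17 genes 16 had a CpG-rich promoter. The share was 23.0% over all protein-coding genes and 40.8% over those with a CpG-rich promoter, and 40.8% lies inside the interval. Peaks were present at *Kmt5a*, *Kmt5b* and *Kmt5c*, whose proteins methylate H4K20, at *Nsd2*, *Nsd3* and *Setd2*, which act on H3K36, at *Dot1l*, which acts on H3K79, at *Suv39h2*, which acts on H3K9, and at *Eed*, a subunit of Polycomb repressive complex 2. *Ezh1*, *Ezh2*, *Suz12*, *Suv39h1*, *Ehmt1*, *Ehmt2*, *Setdb1* and *Nsd1* had none. The pair *Suv39h1* and *Suv39h2* was split, and *Kmt5b* and *Kmt5c* both had a peak. Neither gene of the pair *Ezh1* and *Ezh2* had a peak, and neither gene of the pair *Ehmt1* and *Ehmt2* did. *Suv39h1* lies on chromosome X, where peaks were sparse, and *Suv39h2* on an autosome. Whether the lack of a peak at *Suv39h1* goes with its chromosome was not tested.

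The peak at *Prdm9*, known as the gene of a meiotic methyltransferase, was 482 bp wide and covered the TSS of 3 of its 7 annotated transcripts, 930 bp or more upstream of its representative TSS. The 1001 bp around that representative TSS, which the peak does not reach, held 20 CpGs and were not CpG-rich by the measure used. The peak itself held 24 CpGs at a GC content of 59.3%, with a CpG ratio of 0.566. Expression of *Prdm9* was not analysed here.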
